A study of Mus musculus with 2 samples.

Results

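The genes described here are 8 genes of the ATF4 branch of the stress response: Atf4, Ddit3, Trib3, Chac1, Sesn2, Asns, Psat1 and Phgdh. They were taken by symbol, as the genes whose accession on the array maps to one of these names. That rule uses no measured value, but these 8 genes were chosen with earlier results of these data known. They are 8 of 32103 genes and unnamed transcripts on the array, and 11 of its 39429 probes. Of these, 7 genes with 10 probes passed the filters on spot quality and low signal, among 21337 genes in all. Sesn2 did not pass and is described on its own below the others.

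Ureters of mouse embryos at E12.5 (embryonic day), from wildtype NMRI animals (an outbred strain) of mixed sex, were dissected and cultured on transwell membranes for 18 h. The control cultures received medium alone and the NOGGIN cultures received 10 µg/ml NOGGIN, a secreted protein that binds BMP ligands and keeps them from their receptors. Each of the 2 Agilent arrays carried RNA of 1 control and 1 NOGGIN culture in different dyes, with AlexaFluor647 on the control in replicate 1 and on the NOGGIN culture in replicate 2. The labels do not say whether the replicates came from separate litters or cultures, or how many ureters were pooled, so p-values measure only the spread between these samples, which may be technical.

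ATF4 is a transcription factor whose mRNA is translated better when the translation factor eIF2 is phosphorylated, which kinases do in response to amino acid shortage, misfolded protein in the endoplasmic reticulum (ER), viral RNA or lack of haem. ATF4 then turns on genes for amino acid uptake and synthesis, for glutathione turnover and for feedback on the response. Because much of the control of ATF4 acts on translation, its mRNA on an array need not follow the protein.

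Promoter sequences of the members are shown first because the best known ATF4 binding site, the composite element it uses together with a C/EBP partner, can be read directly in them. The letters TGATGNAA, the core of that element, were searched on both strands in RefSeq promoter windows of mouse build GRCm38.p6, which run from 250 bases before to 50 bases after the annotated start. Windows were found for all 8 members (9 windows, Psat1 having more than 1), and the core was in the windows of 3 genes, Chac1, Trib3 and Asns. Of all 32851 windows, 1304 (3.97%) held it. The windows below are written 5′ to 3′ on the gene's strand with the core in capitals. Those of Chac1 (chr2:119350992-119351241, plus strand) and Asns (chr6:7693210-7693459, minus strand) are shown up to the start, and that of Trib3 (chr2:152344039-152344310, minus strand) to 22 bases after it.
Chac1: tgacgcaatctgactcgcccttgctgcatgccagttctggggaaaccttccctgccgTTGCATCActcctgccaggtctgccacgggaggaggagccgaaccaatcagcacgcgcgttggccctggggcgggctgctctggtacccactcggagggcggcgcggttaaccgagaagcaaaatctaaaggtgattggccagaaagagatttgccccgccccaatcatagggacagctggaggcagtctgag
Trib3: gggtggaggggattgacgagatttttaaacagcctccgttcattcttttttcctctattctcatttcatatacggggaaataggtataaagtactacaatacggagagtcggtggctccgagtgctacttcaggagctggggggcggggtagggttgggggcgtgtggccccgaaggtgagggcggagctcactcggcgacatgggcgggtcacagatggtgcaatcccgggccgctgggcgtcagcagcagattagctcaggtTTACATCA
Asns: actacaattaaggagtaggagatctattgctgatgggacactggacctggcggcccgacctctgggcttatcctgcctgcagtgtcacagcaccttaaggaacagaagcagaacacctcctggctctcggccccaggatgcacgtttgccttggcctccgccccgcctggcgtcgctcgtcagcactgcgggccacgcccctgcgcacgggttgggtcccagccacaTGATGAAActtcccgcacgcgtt

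In Chac1 the core was read on the opposite strand, as TTGCATCA from position -193 to -186 relative to the start. In Trib3 it was also read on the opposite strand, as TTACATCA, at positions 15 to 22 and thus after the annotated start. In Asns it stood on the gene's own strand, as TGATGAAA, from position -23 to -16. The ER stress element, searched as CCAAT and CCACG with 9 bases between them on either strand, was in 0 of the 9 member windows and in 39 of all 32851 (0.119%). Such matches describe letters in a window of fixed length, and absence from the window says nothing about elements elsewhere in a gene.

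Levels below are normalised log2 signals, and a log2 ratio is the NOGGIN-labelled minus the control-labelled signal of the same array, read from the dyes in the labels. In the authors' deposited table the signs are the opposite on both arrays. There, Id2 and Smad9, genes of the BMP pathway, have signed fold changes of -4.19 and -10.5 and of -5.26 and -6.74, while the label-oriented log2 ratios were 2.73 ± 0.87 for Id2 and 2.37 ± 0.20 for Smad9 (mean ± SD, n = 2 arrays). As labelled, Id2 and Smad9 are thus higher in the NOGGIN-labelled channel, although NOGGIN keeps BMP ligands from their receptors. With the sign of the deposited table they would be lower there. The direction is therefore not settled. Turning the sign exchanges higher and lower in every sentence that follows, and leaves sizes and p-values as they are. "Lower" below means lower in the NOGGIN-labelled channel. The level of one probe is not set against that of another, and a sum over a marker list is compared only between channels, over the same probes.

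Of the 7 members tested, 1 passed an adjusted p of 0.05 (limma fitted across all genes, Benjamini-Hochberg adjustment). That gene was Chac1, which was lower by 1.42-fold. Over all 21337 genes 7.97% passed, 3.95% as higher and 4.03% as lower, so a single call among 7 genes stands close to the background. By unadjusted p, 3 of the 7 members (Chac1, Trib3 and Atf4) were under 0.05, beside 23.2% of all genes. No member changed by 1.5-fold or more in one direction on both arrays, which 2.90% of all genes did. All 7 members tested had a negative log2 ratio on both arrays. Of all genes, 33.1% were negative on both arrays and 66.7% had the same sign on both in either direction. The median log2 ratio of the 7 members was -0.19, against 0.001 over all genes. It was -0.10 on replicate 1 and -0.28 on replicate 2.

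**Figure D1:**
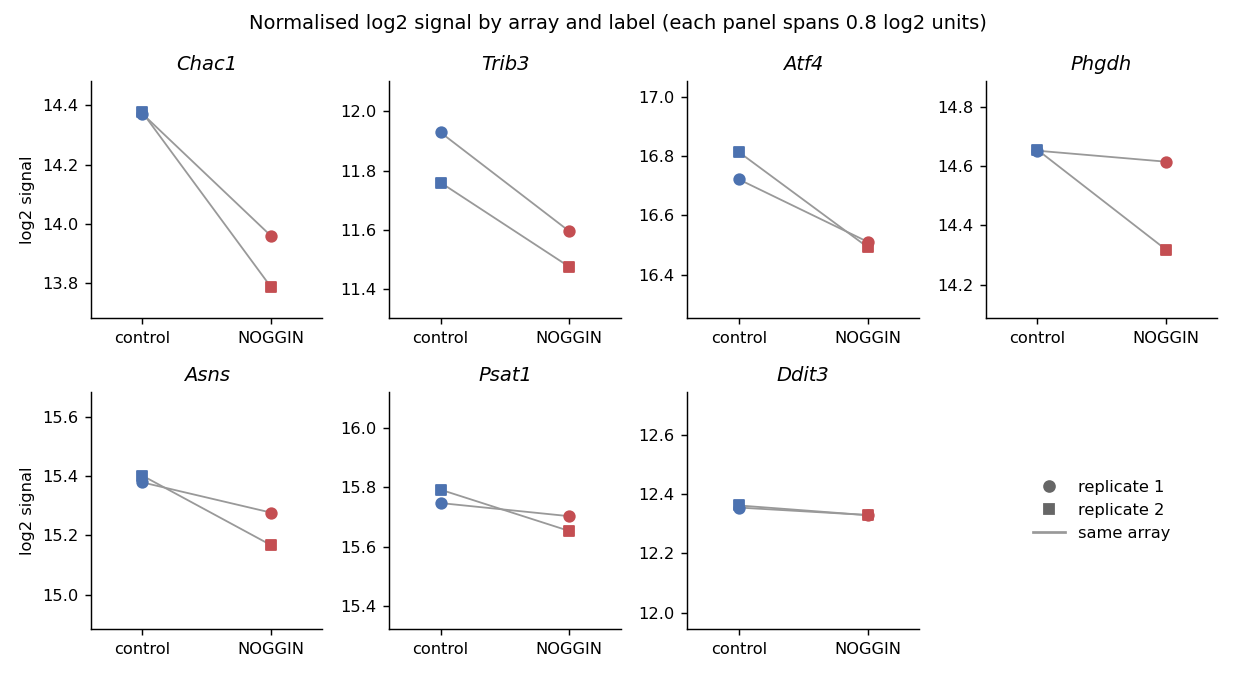
Normalised log2 signal of the 7 members tested, by label (x axis) and array, with lines joining the channels of an array; each panel spans the same range of log2 units. In each panel both NOGGIN-labelled signals lie below both control-labelled signals, by the most in Chac1 and by the least in Ddit3.

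The transcription factor genes of the group were Atf4 and Ddit3. Atf4 encodes the factor itself. Its control-labelled signals were 16.72 on replicate 1 and 16.81 on replicate 2, and its NOGGIN-labelled signals were 16.51 and 16.49. Both NOGGIN-labelled values lay below both control values. The log2 ratio was -0.21 and -0.32, with a mean of -0.27 ± 0.078 (SD, n = 2) and a 95% interval of -0.46 to -0.07, and it did not pass the threshold (limma adjusted p = 0.116). The other Atf4 probe, which reads the same transcript, also gave a mean of -0.27.

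Ddit3 encodes CHOP, a C/EBP-type factor induced downstream of ATF4 and linked to cell death under prolonged stress. Its signals were 12.35 and 12.36 in the control-labelled channels and 12.33 and 12.33 in the NOGGIN-labelled channels. The log2 ratio of -0.029 ± 0.0054 (SD, n = 2) had a 95% interval of -0.21 to 0.15 (limma adjusted p = 0.862). Ddit3 had the narrowest gap between the labels of the 7 genes. Changes inside its interval are not excluded by 2 arrays. That interval is not the limit of detection, since Atf4, with a mean of -0.27 outside it, did not pass either.

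Trib3 and Chac1 are targets of ATF4 and CHOP that act back on the response or on the redox state. Trib3 encodes a pseudokinase that binds ATF4 and AKT. Its signals were 11.93 and 11.76 in the control-labelled channels and 11.60 and 11.48 in the NOGGIN-labelled channels, without overlap. The log2 ratio was -0.33 and -0.28, a mean of -0.31 ± 0.035 (SD, n = 2) with a 95% interval of -0.49 to -0.12, and did not pass the threshold (limma adjusted p = 0.0749). It passed under 2 of 13 alternatives to the processing: quantile scaling of all 4 channels (limma adjusted p = 0.0487) and a separate-channel model (0.0493).

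Chac1 encodes a glutathione-degrading enzyme of the cytosol. Before normalisation its raw control signals were 27025 and 17600 on the replicates and its raw NOGGIN signals 12143 and 17648, while over all spots the brighter dye was on the control in replicate 1 and on NOGGIN in replicate 2. After normalisation its signals were 14.37 and 14.38 in the control-labelled channels and 13.96 and 13.79 in the NOGGIN-labelled channels. The control values nearly coincided and both NOGGIN-labelled values lay below them. The log2 ratio was -0.41 and -0.59, with a mean of -0.50 ± 0.13 (SD, n = 2) and a 95% interval of -0.71 to -0.29 (limma adjusted p = 0.0297). The call was lost when the arrays were centred on their median in place of loess (limma adjusted p = 0.111) and narrowly with the authors' deposited table (0.0504), with log2 ratios between -0.58 and -0.50 over all 13 alternatives.

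None of the 3 genes of the group for enzymes of amino acid synthesis passed the threshold. Asns encodes asparagine synthetase, a long-known target of the amino acid response. Its signals were 15.38 and 15.40 in the control-labelled channels and 15.28 and 15.17 in the NOGGIN-labelled channels. The log2 ratio of -0.17 ± 0.094 (SD, n = 2; -0.10 and -0.23 on the arrays) had a 95% interval of -0.37 to 0.030 (limma adjusted p = 0.278).

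Phgdh and Psat1 encode the first and the second enzyme of serine synthesis from a glycolysis intermediate. For Phgdh the control-labelled signals were 14.65 and 14.66 and the NOGGIN-labelled signals 14.61 and 14.32. The arrays differed, with log2 ratios of -0.037 on replicate 1 and -0.34 on replicate 2, so the mean of -0.19 ± 0.21 (SD, n = 2; 95% interval -0.44 to 0.062, limma adjusted p = 0.333) rests mainly on replicate 2. A second Phgdh probe gave -0.21.

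For Psat1 the signals were 15.75 and 15.79 in the control-labelled channels and 15.70 and 15.65 in the NOGGIN-labelled channels. The log2 ratio of -0.092 ± 0.067 (SD, n = 2) had a 95% interval of -0.28 to 0.099 (limma adjusted p = 0.539), and a second probe gave -0.11. For all 7 genes the NOGGIN-labelled signals did not overlap the control-labelled ones; 51.2% of all genes tested were separated in this way in one direction or the other.

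**Figure D2:**
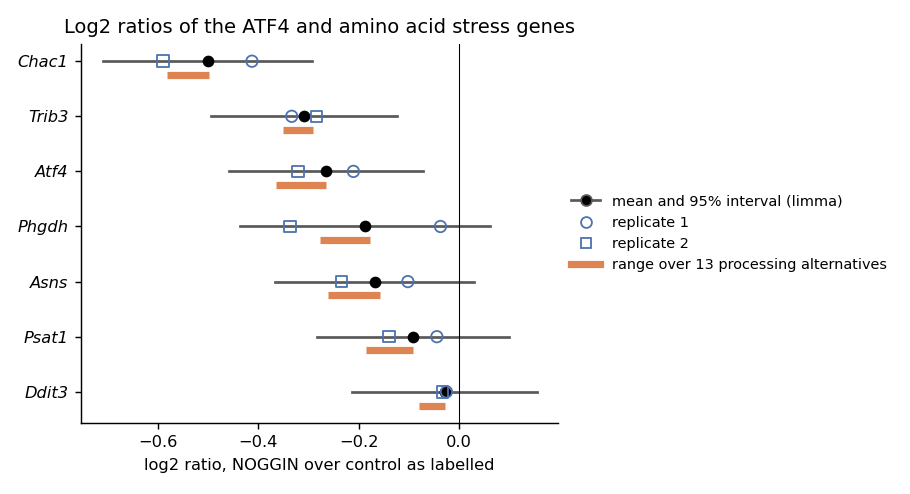
Log2 ratio (NOGGIN over control as labelled, x axis) of the 7 members tested, with both arrays as open symbols, the mean and 95% interval of the limma fit as filled points and lines, and the range over 13 processing alternatives as orange bars. The intervals of Chac1, Trib3 and Atf4 exclude 0, and those of Phgdh, Asns, Psat1 and Ddit3 include it; the orange bars stay below 0 for all 7.

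The order of the log2 ratios, from Chac1 over Trib3, Atf4, Phgdh, Asns and Psat1 to Ddit3, is a description, since no member was tested against another. The 95% interval of each gene overlaps that of its neighbour. At the ends, that of Chac1 (-0.71 to -0.29) lies below those of Psat1 (-0.28 to 0.099) and Ddit3 (-0.21 to 0.15). The 3 genes with the TGATGNAA core shown above had ratios of -0.50 (Chac1), -0.31 (Trib3) and -0.17 (Asns). The others tested ran from -0.27 (Atf4) to -0.029 (Ddit3), so the ranges overlap. In the authors' deposited table, whose sign is the opposite, the fold changes on the arrays were 1.34 and 1.49 for Chac1, 1.22 and 1.22 for Trib3 and 1.02 and 1.02 for Ddit3.

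Sesn2 encodes sestrin 2, a leucine-binding protein that restrains the growth kinase complex mTORC1 and is an ATF4 target. All 4 of its spots on replicate 1 and 2 of 4 on replicate 2 were flagged by the scanner software as non-uniform. It therefore had no ratio on replicate 1 and was not tested. The unflagged spots of replicate 2 gave 12.28 for control and 12.52 for NOGGIN, a log2 ratio of 0.24. Raw signals on replicate 1 ran from 8043 to 66627 for control and from 3478 to 19593 for NOGGIN, and on replicate 2 from 3866 to 4917 and from 6655 to 9931. The channel with AlexaFluor647 was the brighter one on both arrays. With the flagged spots kept, an alternative added after the flags were seen, the arrays had opposite signs, -0.70 and 0.33 (mean -0.18 ± 0.73, SD, n = 2, 95% interval -0.82 to 0.45, limma adjusted p = 0.726). No direction can be given for Sesn2. The authors' deposited table lists 1.52 and -1.10 for it.

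The rest of the pathway was read from 9 lists of genes, also chosen with earlier results of these data known. Together they had 160 genes tested, of which 3 were higher and 9 lower (7.50%, beside the 7.97% of all genes), with a median log2 ratio of -0.071. Most of the calls lay in 1 list, that of ATF4 partners and other stress response targets, where 7 of 25 genes passed. All 12 calls were lost with median centring in place of loess, under which limma called 0 genes of the whole array (3572 by an unadjusted p under 0.05), while the directions held.

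**Figure D3:**
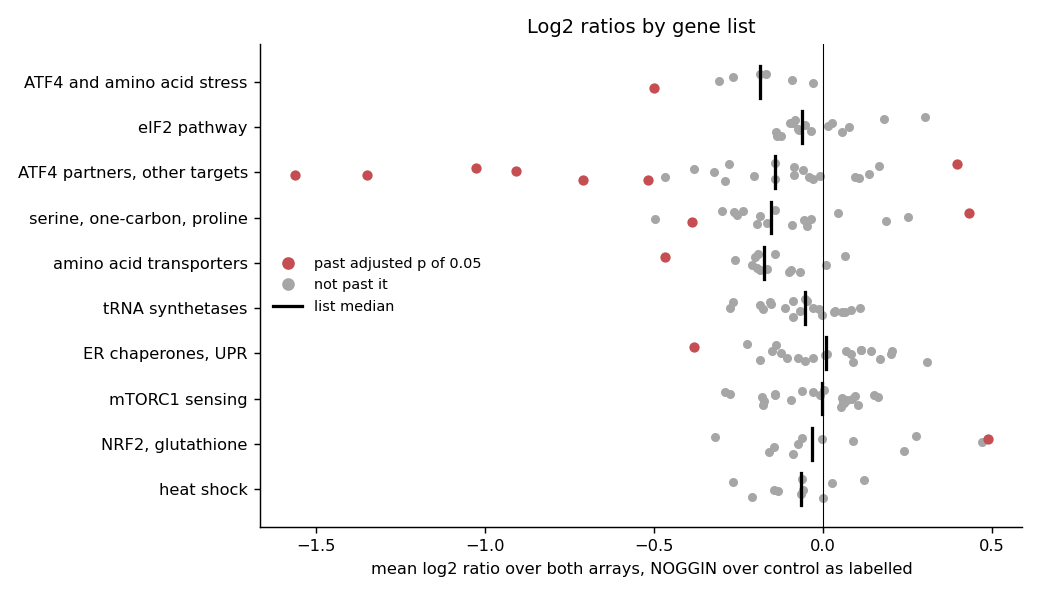
Mean log2 ratio over both arrays (NOGGIN over control as labelled, x axis) of each gene tested in the 10 gene lists (y axis); red points passed an adjusted p of 0.05 in limma, grey points did not, and bars mark list medians. The list of ATF4 partners and other targets spreads from -1.56 to 0.39 and holds 7 of the red points, and the eIF2, tRNA synthetase, mTORC1 and heat shock lists hold none.

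Upstream of ATF4, none of the 16 genes of the eIF2 pathway passed (median -0.063). The kinases that phosphorylate eIF2 had log2 ratios of 0.056 ± 0.15 for Eif2ak1 (HRI, haem), 0.18 ± 0.062 for Eif2ak2 (PKR, double-stranded RNA), -0.054 ± 0.17 for Eif2ak3 (PERK, ER stress) and 0.075 ± 0.059 for Eif2ak4 (GCN2, uncharged tRNA), each a mean ± SD over 2 arrays. Their activity depends on protein state, which an array does not measure.

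Among ATF4 partners and other targets, 6 of 25 genes tested were lower and 1 was higher (median -0.14). Of them, 4 were lower by 1.5-fold or more on both arrays, as were 1.55% of all genes. Among these 4, Fgf21 had a NOGGIN-labelled signal not well above background on replicate 2. Nupr1, a small stress-induced chromatin protein, had signals of 14.76 and 14.85 in the control-labelled channels and 13.23 and 13.26 in the NOGGIN-labelled channels. It was lower by 2.95-fold, with a log2 ratio of -1.56 ± 0.035 (SD, n = 2, limma adjusted p = 0.00338). Gadd45a, a growth arrest gene, was lower with -1.03 ± 0.17 (limma adjusted p = 0.00676). Stc2, a secreted glycoprotein induced by ER stress, was lower with -0.91 ± 0.056 (limma adjusted p = 0.00596).

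Fgf21, a stress-induced endocrine growth factor, had signals of 8.58 and 8.13 in the control-labelled channels and 7.14 and 6.86 in the NOGGIN-labelled channels. In the NOGGIN-labelled channel its probe stood well above background only on replicate 1, so 1 of 2 arrays measured both channels, with a log2 ratio of -1.44 there. The fit over both arrays gave -1.35 ± 0.12 (SD, n = 2, limma adjusted p = 0.00401), a size that is not firm: it ran from -2.42 to -1.34 over the alternatives.

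Atf3, a stress-induced factor of the ATF family, was lower with -0.52 ± 0.077 (SD, n = 2, limma adjusted p = 0.0225). The ATF4 paralogue Atf5 was not past the threshold (0.14 ± 0.072, limma adjusted p = 0.358). Vldlr, a lipoprotein receptor named after its value was seen, was the gene of this list that rose (0.39 ± 0.012, limma adjusted p = 0.0397), a call also lost with Agilent's processed signals (0.0777) and with the authors' deposited table (0.0686). In the families that the members belong to, calls were mixed. Of the tribbles genes, Trib2 was lower (-0.71 ± 0.27, limma adjusted p = 0.0262), with -0.61 for its other probe, and Trib1 had -0.47 ± 0.29 without passing (limma adjusted p = 0.0851). Chac2 had -0.059 ± 0.12, and the sestrins had -0.010 ± 0.041 for Sesn1 and -0.14 ± 0.11 for Sesn3, none of them past the threshold.

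**Figure D4:**
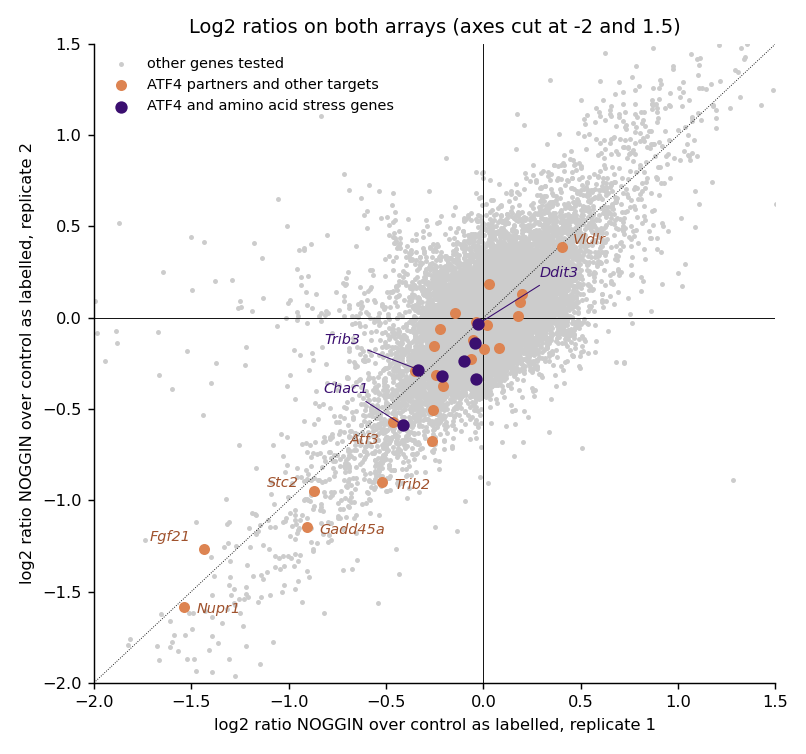
Log2 ratio (NOGGIN over control as labelled) on replicate 1 (x axis) against replicate 2 (y axis) for all genes tested in grey, the ATF4 partners and other targets in orange and the 7 members in purple; the dotted line marks equal ratios and the axes are cut. The members lie in the lower left quadrant close to the centre, and Nupr1, Fgf21, Gadd45a and Stc2 lie farther out along the line.

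Of the genes for serine, glycine, one-carbon and proline synthesis, 18 were tested, 1 was higher and 1 lower (median -0.15). Psph, which completes the serine pathway after Phgdh and Psat1, was lower (-0.39 ± 0.040, SD, n = 2, limma adjusted p = 0.0423). Glul, glutamine synthetase, was higher (0.43 ± 0.041, limma adjusted p = 0.0325). Both calls were lost with Agilent's processed signals, with median centring and with the authors' deposited table, and that of Psph also with a normexp offset of 0.

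Of 14 amino acid transporter genes, 12 had a negative mean log2 ratio, beside 49.7% of all genes. This lean was not particular to transporters. Negative were 20 of 25 partners and targets, 14 of 18 synthesis genes, 15 of 21 in the tRNA synthetase list and 8 of 10 heat shock genes. In the other lists it was 10 of 16 (eIF2), 7 of 12 (NRF2), 10 of 22 (ER chaperones) and 11 of 22 (mTORC1). The transporter list median was -0.18, with -0.065 on replicate 1 and -0.25 on replicate 2. The 1 transporter gene that passed was Slc7a3, a cationic amino acid transporter, with -0.47 ± 0.032 (SD, n = 2, limma adjusted p = 0.0264). None of the 21 genes of the tRNA synthetase list, which also holds the tRNA export receptor gene Xpot, passed (median -0.054); many synthetase genes are ATF4 targets in other settings. The TGATGNAA core was found in 5 of the 13 genes of this list whose promoter window was matched by name (Aars, Gars, Iars, Tars and Yars). Of all windows, 3.97% held it, which is a share of windows and not of genes. Matching used the gene names as listed, so a gene carried under a newer symbol could be missed. In the list of partners and targets the core was found in 5 of 21 genes matched in the same way (Atf3, Fgf21, Jdp2, Nupr1 and Vldlr). That set holds genes called lower, a gene called higher and Jdp2, which did not pass. In the other companion lists the core was in 2 of 10 transporter, 2 of 14 synthesis and 1 of 18 ER chaperone genes matched. It was in 0 of 12 eIF2, 0 of 19 mTORC1, 0 of 8 NRF2 and 0 of 8 heat shock genes.

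The other stress programs gave few calls. Of 22 ER chaperones and genes of other branches of the unfolded protein response, 0 were higher and 1 was lower (median 0.007): Derl3, part of ER-associated degradation, with -0.38 ± 0.040 (SD, n = 2, limma adjusted p = 0.0443), a call that 5 of 13 alternatives did not keep. None of 22 genes of amino acid sensing and mTORC1 passed (median -0.003), nor did any of 10 heat shock genes (median -0.064). Of 12 NRF2 and glutathione genes, 1 was higher (median -0.034). That was Gclc, which encodes the catalytic subunit of the enzyme that starts glutathione synthesis, with 0.49 ± 0.059 (SD, n = 2, limma adjusted p = 0.0251, and 0.0513 with the authors' deposited table). By sign the list was split, with 5 genes positive and 7 negative. Its lowest gene, Gclm, named after its value was seen, had -0.32 ± 0.055 without passing (limma adjusted p = 0.0707).

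RNA came from whole ureters, so fewer cells of a type and less RNA per cell cannot be told apart. All markers of urothelium (14 genes), ureteric mesenchyme (10) and smooth muscle (9) were above the filter. Counts of called markers below stand beside 3.95% of all genes called higher and 4.03% called lower. Of the smooth muscle markers 5 of 9 were lower (list median -0.91, Acta2 -1.16, Tagln -1.09). By mean ratio 7 were negative and 2 positive, Mylk (0.25) and Myocd (0.15), neither past the threshold. The summed log2 signal of the 9 markers was 18.96 and 18.93 in the control-labelled and 17.92 and 17.98 in the NOGGIN-labelled channels. Acta2 and Tagln, whose signals were the highest of the list, weigh most in that sum. Of the mesenchyme markers 3 of 10 were higher and 2 lower (median 0.19). Sox9 (2.22) and Tbx18 (1.25) were among the higher ones, and Aldh1a2 (-0.88) and Ptch1 (-0.43), both named after their values were seen, were the lower ones. The list had summed signals of 17.87 and 17.99 against 17.95 and 17.76. Of the urothelial markers 2 of 14 were higher (list median 0.155, Upk2 0.61, Foxa1 0.55), with summed signals of 17.74 and 17.87 against 17.98 and 17.98. By mean ratio 9 of these 14 were positive and 5 negative, and 9 had the same sign on both arrays. None of 8 macrophage markers passed (median -0.27, summed signals 14.59 and 14.13 against 14.17 and 14.15), nor did any of 4 red cell markers. All 8 macrophage markers had a negative mean ratio, but only 5 had the same sign on both arrays. The macrophage median was -0.44 on replicate 1 and -0.12 on replicate 2. Of the other marker lists, 3 of 7 nephron and renal stroma genes and 1 of 8 endothelial genes were lower, and 1 of 8 neural genes was higher. The endothelial list leaned the other way than its 1 call, with 7 mean ratios positive and 1 negative (median 0.12). In the nephron and stroma list 3 were positive and 4 negative, and in the neural list 6 were positive and 2 negative. The part that a change in cell makeup has in the log2 ratios of the ATF4 genes was not tested.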

How the data were processed

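The authors deposited 1 scanner file per array with linear intensities for every spot. The submitters' processing notes name Agilent Feature Extraction, version 10.7.3.1. The authors' deposited table holds a signed fold score per probe and array, with no normalisation stated in the labels. Over 19704 bright probes its log2 values correlated with the label-oriented ratios of the same array at -0.985 and -0.988, and of the other array at -0.720 and -0.722, so scale and array match and the sign is the opposite. Its columns have a median of 1. Both arrays were scanned on 1 slide, and the channel with AlexaFluor647 had the higher median signal on each (520.7 against 288.3 on replicate 1, 531.8 against 310.6 on replicate 2). Between 67.3% and 74.3% of spots were well above background by channel, and 0 were saturated.

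From the intensities, background was corrected with normexp (offset 50, limma 3.58.1, R 4.3.3), each array was normalised with loess fitted on gene spots, and spots flagged as outliers (3.69% on each array) were left out. The 4 spots of a probe were averaged, and arrays were matched by probe name. A probe was kept where at least 1 condition had a share above 0.5 of spots well above background, on replicate 1 and replicate 2 alike. A gene was represented by its brightest kept probe. Symbols came from accessions through RefSeq's table of GRCm38.p6 (28328 probes). Log2 ratios were tested against 0 with limma (two-sided, Benjamini-Hochberg over 21337 genes; 1 residual and 4.12 prior degrees of freedom), and the steps were tested on simulated data, where the share of false calls was above the nominal threshold and part of the 1.5-fold changes was missed. The number of arrays limits the precision: the median SE was 0.077.

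Named are all members, up to 4 genes with the largest ratios among those past the threshold in each list, the relatives Atf5, Chac2, Trib1, Trib2, Sesn1, Sesn3, Psph and Atf3, the eIF2 kinases, and Id2 and Smad9. Members and lists were chosen with earlier results of these data known. Alternatives covered background correction, normalisation, filters, spot and probe summaries, the test and the deposited table.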

Additional observations from a re-analysis of the deposited data

How the results depend on the processing

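The median log2 ratio of the members stayed negative under all 15 alternatives to the processing that used both arrays, and was -0.28 without replicate 1 and -0.10 without replicate 2. With 1 array there are 0 residual degrees of freedom and hence no count. Median centring in place of loess called 0 genes, 0 members and 0 genes of the companion lists in limma, against 1701, 1 and 12; unadjusted p was under 0.05 for 3572 genes and 3 members there, and the median of all genes moved to -0.038. Quantile scaling of all 4 channels and the separate-channel model called 2 members each, Chac1 and Trib3. The authors' deposited table with its sign turned called 0 members (3 by unadjusted p). The remaining alternatives called 1418 to 2281 genes. With the forward strand only, the TGATGNAA core was in the windows of 1 member in place of 3. Keeping flagged spots was added after seeing the data. The ratios are paired by array, and no further block could be fitted with 1 ratio per replicate number.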
